A study of Oryza sativa with 14 samples.

Results

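The amino acid and peptide transporter genes of rice were followed in leaves of the cultivar Koshihikari grown with green manure or with chemical fertilizer. They were chosen by their descriptions in the annotation carried by the deposited tables: genes described as an amino acid transporter, carrier or permease, an amino acid/polyamine transporter, a peptide or oligopeptide transporter, or a protein with a TGF-beta receptor type I/II extracellular region. That search found 136 genes, 1 of which was set aside, leaving 135 of the 37727 genes in the tables. By their InterPro domains, 40 belong to the amino acid/auxin permease (AAAP) family, 22 to the amino acid-polyamine-organocation (APC) superfamily, 14 to the oligopeptide transporter (OPT) family and 51 to the proton-dependent oligopeptide transporter (POT) family, and 8 are fragments or carry no such domain. The label TGF-beta receptor is an inherited database name: 23 of the 26 genes that carry it have the POT domain.

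Poly(A) RNA was sequenced from 3 green manure (GM) and 3 chemical fertilizer (CF) leaves in 2024, taken 38 days after transplanting, and from 4 GM and 4 CF leaves in 2023, taken 47 days after transplanting. All plants were wild type. GM plots received no chemical fertilizer: hairy vetch, a legume cover crop, was sown at 60 kg of seed per ha before the 2024 rice crop and at 30 kg per ha before the 2023 crop and was plowed in. CF plots received a basal dressing of 56 kg N, 176 kg PO4, 56 kg K, 90 kg Mg and 120 kg SiO2 per ha. Seedlings of every group had first been raised in a fertilized nursery field. Each leaf was 1 biological replicate, so p-values measure the spread between leaves, and the labels do not state how many fields or plots were used, which means that treatment and field cannot be told apart.

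Plants move organic nitrogen between leaves, roots and grains as amino acids, carried across membranes by proton-coupled importers (the amino acid permeases, AAP, and the lysine-histidine type transporters, LHT) and by facilitators and exporters. The POT family, in plants also called NPF, holds carriers of di- and tripeptides beside carriers of nitrate and of hormones. OPT proteins move longer peptides and glutathione, and their yellow stripe-like (YSL) branch moves metals bound to nicotianamine.

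Libraries held 13224671 to 23367369 reads uniquely assigned to exons in 2024 and 8161851 to 11375515 in 2023. Levels are given below as CPM, read counts divided by library size, with trimmed-mean (TMM) scaling of all 14 libraries to 1 scale, and levels of different genes are not compared because no gene length was used. Within each year the first principal component separated GM from CF leaves, and GM replicate 2 of 2024 (score 47.3, against 4.3 and 21.3 for the other GM leaves) and GM replicates 1 and 2 of 2023 (24.6 and 55.4, against 1.2 and 1.2) stood farthest from the CF leaves. The leaf genes CAB2R (Os01g0600900, a light-harvesting protein) and PORA (Os04g0678700, a chlorophyll synthesis enzyme) were well detected and higher in GM leaves in both years. Among 4 genes of root or dividing tissue, Lsi2 and OSH1 had 0 reads in every library. The summed level of the 4 was 27.2 to 37.1 CPM in GM and 19.9 to 25.7 CPM in CF leaves of 2024, and 16.4 to 30.0 CPM in GM and 8.33 to 17.0 CPM in CF leaves of 2023. The ranges did not overlap in 2024 and overlapped slightly in 2023. Almost all of the sum was 1 gene, Lsi1 (Os02g0745100), a root silicon channel. Its mean was 29.43 CPM in GM and 22.19 CPM in CF leaves of 2024, and 22.78 and 12.27 CPM in those of 2023. CDKB2;1 (Os08g0512600), of dividing cells, averaged only 0.3515 to 1.786 CPM per group. The part of these genes in the differences below was not tested. In whole leaves, fewer cells of a type and less RNA per cell cannot be told apart.

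Koshihikari leaves expressed a part of the transporter set. Of the 135 genes, 85 had a read in every library, 63 had at least 10 reads in every library, 19 had 1 to 20 reads in all 14 libraries together, and 19 had none. A count of 0 among 179547731 reads allows a level of up to 0.0167 CPM without TMM scaling, counting error only. Genes with 0 reads included PTR6 (Os04g0597800), a peptide transporter by its description and also called NPF7.3, and the peptide transporter gene SBM1 (Os01g0871700). By family, at least 10 reads in every library were found for 22 of 40 AAAP, 9 of 22 APC, 8 of 14 OPT and 23 of 51 POT genes. The transporter genes together took 0.184 ± 0.017% of reads in GM and 0.220 ± 0.0029% in CF leaves of 2024 (SD, n = 3 each), and 0.245 ± 0.020% in GM and 0.257 ± 0.017% in CF leaves of 2023 (SD, n = 4 each). Counts depend on gene length, so they give no order of expression. Among the genes with large counts, 8 are followed below: OsATL5 (Os06g0633800), the glutathione transporter gene OsGT1 (Os06g0125500, also OsOPT3), AAP3 (Os02g0102200, also OsAAP9), the cationic amino acid transporter gene CAT11 (Os12g0623500), AAP1 (Os07g0134000), OsPTR3 (Os12g0231000), OsATL9 (Os02g0788800) and NPF7.7 (Os10g0579600), which is described as a regulator of shoot branching and nitrogen use.

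Small sets of transporter genes differed between GM and CF leaves, more of them lower in GM leaves of 2024 and more of them higher in GM leaves of 2023. In 2024, 86 transporter genes had enough reads to be tested with edgeR's quasi-likelihood test, and 2 were higher and 5 lower in GM than in CF leaves at a Benjamini-Hochberg adjusted p under 0.05 over all genes. That is 8.14% of those tested, against 3.25% of all 19261 genes tested (1.89% higher and 1.36% lower). In 2023, 75 were tested and 5 were higher and 2 lower, which is 9.33%, against 2.48% of all 18577 genes tested (1.63% higher and 0.851% lower). The genes that passed in either year numbered 12, of which 2 passed in both: OsPTR3 was higher and AAP11E (Os01g0882800) lower in GM leaves each time. That is 2 of the 75 transporter genes tested in both years, against 166 of all 18227 genes tested in both. Scaled by plain library totals, which moved the median of all genes by -0.21 in 2024 and by -0.18 in 2023 on the log2 scale, the 2024 split was 0 higher and 13 lower, and the 2023 split 4 higher and 3 lower. The 2024 count was 17 without GM replicate 1, 3 without GM replicate 2, GM replicate 3 or CF replicate 1, and 4 without CF replicate 2. The 2023 count was 2 without CF replicate 1 or CF replicate 3.

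**Figure D1:**
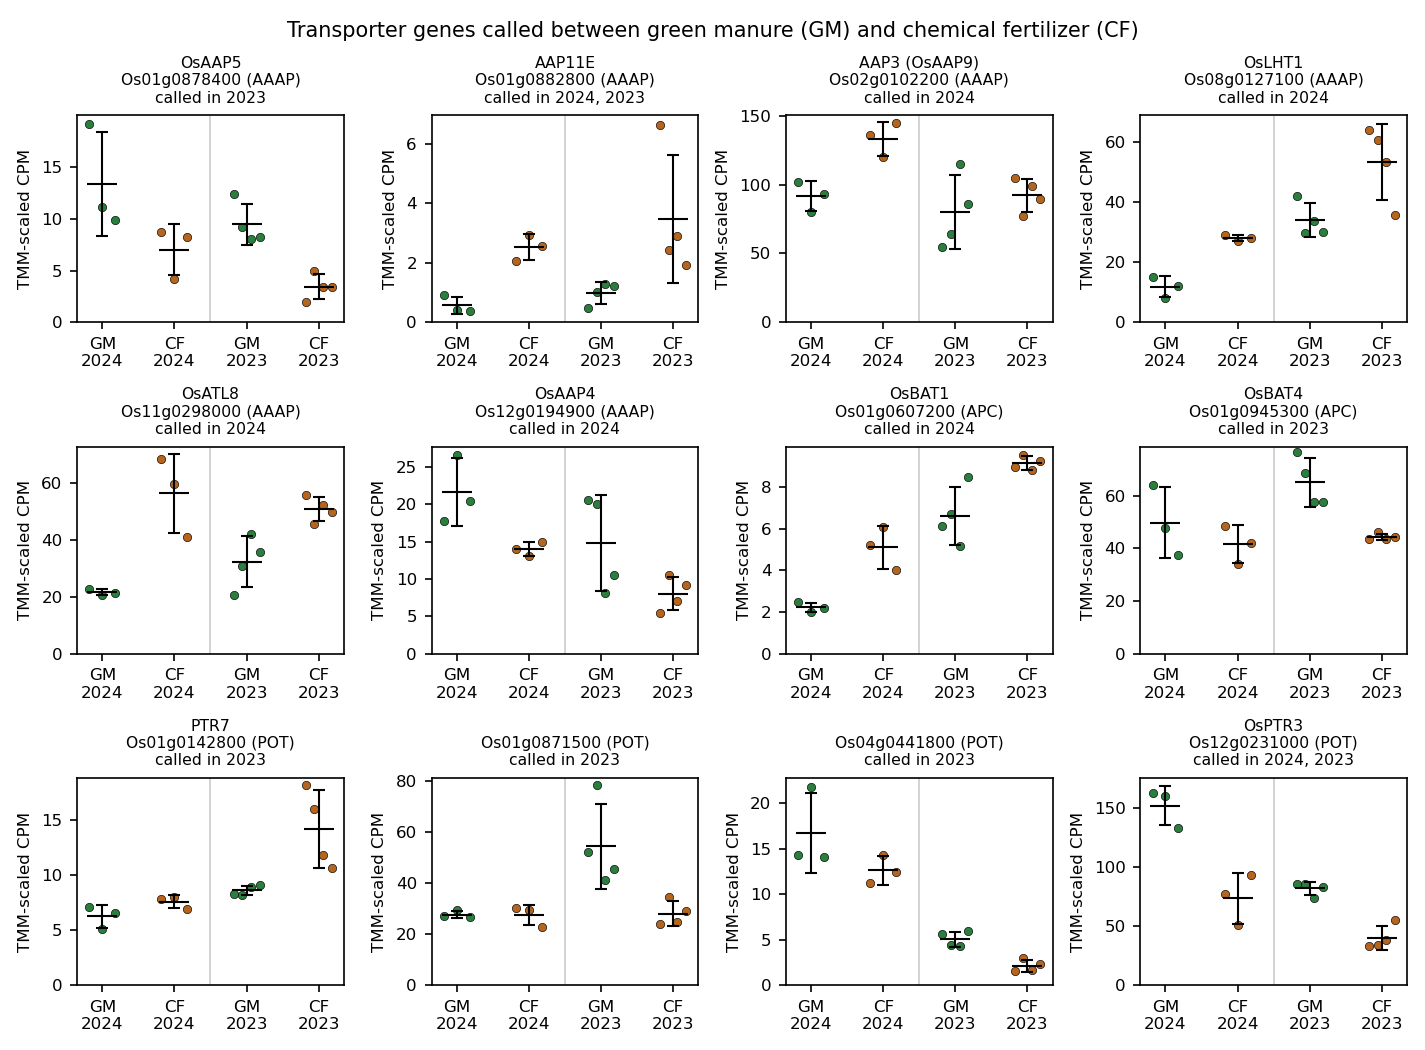
TMM-scaled CPM (linear axis) of the 12 transporter genes that differed between green manure (GM, green) and chemical fertilizer (CF, brown) leaves in at least 1 year. Each point is 1 leaf, the horizontal bar is the mean and the whiskers are ± SD. OsPTR3, AAP11E, OsATL8, OsBAT1 and OsAAP5 show no overlap between GM and CF leaves in either year.

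Among the importers of the AAAP family, OsLHT1 (Os08g0127100), a lysine-histidine type transporter that takes up a broad range of amino acids, fell in GM leaves in 2024. It had 15.2, 8.17 and 12.2 CPM in GM leaves of 2024, against 29.1, 27.2 and 28.3 CPM in CF leaves. Every GM leaf lay below every CF leaf, and the log2 fold change was -1.24 ± 0.17 (SE; edgeR adjusted p = 0.0052), which passed with any 1 leaf left out. In 2023 OsLHT1 had 42.2, 29.8, 33.8 and 30.3 CPM in GM leaves, against 64.2, 60.7, 53.3 and 35.8 CPM in CF leaves. CF replicate 4 fell among the GM leaves there, and the log2 fold change of -0.66 ± 0.17 did not pass with edgeR (adjusted p = 0.075) and passed with DESeq2 (adjusted p = 0.0134).

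OsATL8 (Os11g0298000), a less studied AAAP gene, followed the same course. It had 22.8, 20.7 and 21.5 CPM in GM leaves of 2024, against 68.5, 59.7 and 41.1 CPM in CF leaves (log2 fold change -1.39 ± 0.17; edgeR adjusted p = 0.00382), and the call held with any 1 leaf left out. In 2023 it had 20.8, 30.9, 42.2 and 35.8 CPM in GM leaves, against 55.8, 45.6, 52.4 and 49.8 CPM in CF leaves. The groups did not overlap in either year, but the 2023 log2 fold change of -0.66 ± 0.17 did not pass with edgeR (adjusted p = 0.075). It passed with DESeq2 (adjusted p = 0.0137) and with plain library totals (edgeR adjusted p = 0.021). Without GM replicates 1 and 2 of 2023, the leaves that stood apart, the 2023 value for OsATL8 was -0.38 ± 0.11 and passed (edgeR adjusted p = 0.0483).

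AAP11E (Os01g0882800), which the annotation describes as similar to an amino acid carrier and also names OsAAP8, had the largest log2 fold change among the transporter genes that passed in either year. It was counted with few reads: GM leaves of 2024 had 0.907, 0.424 and 0.375 CPM, from 23 reads in all, against 2.06, 2.94 and 2.57 CPM from 126 reads in CF leaves. In 2023 GM leaves had 0.466, 1.03, 1.27 and 1.22 CPM, from 42 reads, against 6.63, 2.41, 2.91 and 1.92 CPM from 150 reads in CF leaves. GM leaves were below CF leaves without overlap in both years, with log2 fold changes of -2.09 ± 0.37 in 2024 (edgeR adjusted p = 0.0116) and -1.82 ± 0.43 in 2023 (edgeR adjusted p = 0.0388). The 2023 call for AAP11E was lost in 7 of 8 fits that left out 1 leaf, with a value of -1.28 ± 0.40 (edgeR adjusted p = 0.183) without CF replicate 1, the highest leaf. In 2024 the call was lost in 2 of 6 such fits, with adjusted p of 0.0536 without CF replicate 2 and 0.0506 without CF replicate 3.

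AAP3 (Os02g0102200), the AAP gene that the annotation also names OsAAP9, was lower in GM leaves of 2024, with 102, 80.1 and 93.2 CPM, against 136, 120.0 and 144 CPM in CF leaves. The groups did not overlap (log2 fold change -0.55 ± 0.11; edgeR adjusted p = 0.0186). In 2023 GM leaves of this gene spread from 54.9 to 115 CPM, around the 76.9 to 104 CPM of CF leaves, with a log2 fold change of -0.21 ± 0.22. The 2024 call was lost in 4 of 6 fits that left out 1 leaf, with an adjusted p up to 0.0919. The annotation gives the symbols AAP3 and OsAAP3 also to a different gene, Os06g0556000, which is called OsAAP3 below.

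Other permeases were higher in GM leaves. OsAAP5 (Os01g0878400), described in the annotation as a regulator of tiller number and grain yield, had 12.4, 9.16, 8.09 and 8.26 CPM in GM leaves of 2023, against 1.97, 4.92, 3.41 and 3.39 CPM in CF leaves. All GM leaves were above all CF leaves, the log2 fold change was 1.47 ± 0.24 (edgeR adjusted p = 0.00484), and no single leaf decided the call. In 2024 OsAAP5 had 19.1, 11.1 and 9.83 CPM in GM leaves, against 8.68, 4.20 and 8.20 CPM in CF leaves. These groups also did not overlap, but the log2 fold change of 0.93 ± 0.34 did not pass with edgeR (adjusted p = 0.212) and passed with DESeq2 (adjusted p = 0.0186). Its neighbour on chromosome 1, OsAAP6 (Os01g0878700, also qPC1), a grain protein content gene, had log2 fold changes of 0.25 ± 0.38 in 2024 and 0.52 ± 0.32 in 2023, and neither passed.

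OsAAP4 (Os12g0194900), another amino acid permease, had 17.8, 26.6 and 20.4 CPM in GM leaves of 2024, against 14.1, 13.1 and 14.9 CPM in CF leaves. The groups did not overlap, and the log2 fold change of 0.60 ± 0.15 lay just inside the threshold (edgeR adjusted p = 0.0498). That call was lost in 5 of 6 fits that left out 1 leaf, the exception being the fit without GM replicate 1, and with plain library totals (log2 fold change 0.38 ± 0.14; edgeR adjusted p = 0.111). In 2023 GM leaves had 20.5, 20.1, 8.09 and 10.5 CPM, against 5.47, 10.5, 7.03 and 9.16 CPM in CF leaves, a log2 fold change of 0.88 ± 0.32 that did not pass. The high values were in GM replicates 1 and 2, the leaves that stood apart in 2023, and without both the log2 fold change was 0.20 ± 0.23.

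OsAAP7 (Os05g0424000), a further permease, had the largest positive log2 fold change of all transporter genes tested in 2023 and lay just outside the threshold in 2024. In 2024 it had 36.9, 46.2 and 39.3 CPM in GM leaves, against 20.5, 27.4 and 31.7 CPM in CF leaves (log2 fold change 0.60 ± 0.15; edgeR adjusted p = 0.0576). In 2023 it had 21.4, 26.6, 9.09 and 13.2 CPM in GM leaves, against 1.34, 6.22, 3.81 and 5.41 CPM in CF leaves (log2 fold change 2.06 ± 0.49; edgeR adjusted p = 0.0842). GM leaves were above CF leaves without overlap in both years, and the gene passed in neither with edgeR but in both with DESeq2 (DESeq2 adjusted p = 0.00914 in 2024 and 0.00594 in 2023). Without the low-count filter it passed in 2024 (edgeR adjusted p = 0.0158). Without GM replicates 1 and 2 of 2023 the 2023 value for OsAAP7 was 1.40 ± 0.44.

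Close to the threshold in 2024 were also OsATL12 (Os06g0228500), with a log2 fold change of -0.80 ± 0.20 (adjusted p = 0.071 with edgeR and 0.00189 with DESeq2), and OsANT2 (Os03g0817200). OsANT2 had 0.843, 1.91 and 1.20 CPM in GM leaves of 2024, against 0.147, 0.467 and 0.381 CPM in CF leaves, from 47 and 17 reads (log2 fold change 1.86 ± 0.49; edgeR adjusted p = 0.0634, and 0.0321 without the low-count filter). Its relative OsANT1 (Os07g0231400), similar to aromatic and neutral amino acid transporters, had log2 fold changes of 0.08 ± 0.15 in 2024 and 0.22 ± 0.15 in 2023. Over the AAAP family, 1 gene was higher and 4 were lower of 29 tested in 2024 (median log2 fold change 0.05), and 1 was higher and 1 lower of 25 tested in 2023 (median 0.11). The median of all genes tested was 0.00 in both years. Of those, 1.89% were higher and 1.36% lower in 2024, and 1.63% and 0.851% in 2023.

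In the APC superfamily, which holds the cationic amino acid transporters (CAT) and relatives of the Arabidopsis bidirectional amino acid transporter (BAT), 1 BAT gene differed in each year. OsBAT1 (Os01g0607200) had 2.46, 2.02 and 2.18 CPM in GM leaves of 2024, against 5.22, 6.07 and 4.005 CPM in CF leaves. Its log2 fold change was -1.19 ± 0.23 (edgeR adjusted p = 0.0177), and the call was lost in 4 of 6 fits that left out 1 leaf, with an adjusted p up to 0.0832. In 2023 OsBAT1 had 6.14, 6.69, 5.18 and 8.46 CPM in GM leaves, against 8.96, 9.56, 8.84 and 9.25 CPM in CF leaves. These groups did not overlap either, but the log2 fold change of -0.48 ± 0.17 did not pass (edgeR adjusted p = 0.179).

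OsBAT4 (Os01g0945300) moved the other way. It had 76.5, 68.5, 57.7 and 57.5 CPM in GM leaves of 2023, against 43.5, 46.1, 43.4 and 44.2 CPM in CF leaves (log2 fold change 0.55 ± 0.10; edgeR adjusted p = 0.0118). Every GM leaf was above every CF leaf. The call for OsBAT4 was lost in 2 of 8 fits that left out 1 leaf, with an adjusted p up to 0.0576, and with plain library totals (log2 fold change 0.37 ± 0.12; edgeR adjusted p = 0.0922). In 2024 its GM leaves had 64.0, 47.5 and 37.4 CPM, against 48.3, 34.2 and 42.2 CPM in CF leaves, and these ranges overlapped (log2 fold change 0.25 ± 0.20). OsBAT4 stands in a run of BAT genes on chromosome 1 whose other members had from 0 reads in all 14 libraries (Os01g0945700) to 117 (Os01g0945200).

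CAT11, a cationic amino acid transporter gene, had 85.6, 65.8 and 66.1 CPM in GM leaves of 2024, against 93.0, 93.1 and 97.3 CPM in CF leaves, which did not overlap but did not pass (log2 fold change -0.39 ± 0.11; edgeR adjusted p = 0.0768). It passed without the low-count filter (edgeR adjusted p = 0.0234) and with plain totals (0.0354). In 2023 its log2 fold change was -0.08 ± 0.11. OsCAT1 (Os01g0209800) had -0.15 ± 0.17 in 2024 and -0.07 ± 0.13 in 2023. Of the 14 APC genes tested in 2024, 9 had a negative log2 fold change, as did 7 of 12 in 2023. Among all genes tested, 9801 of 19261 were negative in 2024 and 9328 of 18577 in 2023. Pairs of near-identical genes such as OsCAT8 and OsCAT9 could have lost reads to counting that kept only uniquely assigned reads.

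The POT family, with the most genes tested, gave the largest group of higher calls in 2023, 3 of 27, with 1 lower. Of all genes tested in 2023, 1.63% were higher and 0.851% lower. OsPTR3 (Os12g0231000), a peptide transporter gene by its name, had 162, 160.3 and 133 CPM in GM leaves of 2024, against 77.1, 50.5 and 93.0 CPM in CF leaves. In 2023 it had 85.3, 85.4, 73.7 and 83.1 CPM in GM leaves, against 32.7, 33.6, 38.5 and 55.1 CPM in CF leaves. All GM leaves were above all CF leaves of the same year, and the log2 fold change was 1.03 ± 0.21 in 2024 (edgeR adjusted p = 0.0429) and 1.03 ± 0.14 in 2023 (edgeR adjusted p = 0.0024). The OsPTR3 call of 2023 held with any 1 leaf left out. That of 2024 was lost in 4 of 6 such fits, with an adjusted p up to 0.157, without the low-count filter (0.156) and with plain library totals (0.0567). The annotation gives the symbol OsPTR3 also to a different POT gene, Os10g0470700 (NPF5.5), but OsPTR3 here always means Os12g0231000. The mean of Os10g0470700 was 14.47 CPM in GM and 19.91 CPM in CF leaves of 2024, and 19.61 and 19.85 CPM in those of 2023.

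PTR7 (Os01g0142800, also NPF8.1), which the annotation links to the long-distance movement of dimethylarsinate, was the POT gene that fell. It had 8.32, 8.23, 8.90 and 9.07 CPM in GM leaves of 2023, against 18.2, 16.1, 11.8 and 10.6 CPM in CF leaves (log2 fold change -0.72 ± 0.17; edgeR adjusted p = 0.0388). The groups did not overlap, the GM leaves being close to each other and the CF leaves spread. The PTR7 call was lost in 7 of 8 fits that left out 1 leaf, with an adjusted p up to 0.17. In 2024 GM leaves had 7.13, 5.09 and 6.53 CPM, against 7.80, 8.01 and 6.91 CPM in CF leaves (log2 fold change -0.27 ± 0.17).

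A pair of POT genes without a symbol, Os04g0441800 and Os01g0871500, were higher in GM leaves of 2023. Os04g0441800 had 5.60, 4.42, 4.27 and 5.91 CPM in GM leaves of 2023, against 1.52, 2.97, 1.61 and 2.29 CPM in CF leaves (log2 fold change 1.26 ± 0.26; edgeR adjusted p = 0.018). In 2024 it had 14.3, 21.8 and 14.1 CPM in GM leaves, against 11.2, 14.3 and 12.4 CPM in CF leaves (log2 fold change 0.38 ± 0.17; edgeR adjusted p = 0.301). The groups were apart in 2023 and overlapped in 2024, when both were higher than in 2023. The 2023 call was lost in 3 of 8 fits that left out 1 leaf, with an adjusted p up to 0.0786.

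Os01g0871500 had 52.3, 78.5, 41.2 and 45.6 CPM in GM leaves of 2023, against 24.1, 34.4, 24.6 and 29.1 CPM in CF leaves (log2 fold change 0.95 ± 0.20; edgeR adjusted p = 0.0335). In 2024 it had 27.1, 29.3 and 26.6 CPM in GM leaves, against 30.2, 29.5 and 22.8 CPM in CF leaves (log2 fold change 0.00 ± 0.12). Without GM replicates 1 and 2 of 2023, the highest leaves for this gene, the 2023 value was 0.63 ± 0.13 (edgeR adjusted p = 0.00487). The call was lost in 4 of 8 fits that left out 1 leaf, with an adjusted p up to 0.114, and without the low-count filter (0.0632). Os01g0871500 lies in a run of POT genes on chromosome 1, from Os01g0871500 to Os01g0872600, in which similar copies could share reads. In that run NPF5.16 (Os01g0872500) had log2 fold changes of 0.32 ± 0.28 in 2024 and 0.17 ± 0.22 in 2023.

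Over the POT family, 1 gene was higher and 0 lower of 32 tested in 2024 (median log2 fold change -0.15, 19 of 32 negative), and 3 were higher and 1 lower of 27 tested in 2023 (median 0.24, 21 of 27 positive). Of all genes tested, 1.89% were higher and 1.36% lower in 2024, with 9801 of 19261 negative. In 2023, 1.63% were higher and 0.851% lower, with 9249 of 18577 positive. Os10g0469900, the POT gene nearest the threshold in 2023 (log2 fold change 0.37 ± 0.10; adjusted p = 0.0724 with edgeR and 0.0409 with DESeq2), had -0.23 ± 0.18 in 2024. Of the POT and other genes with the TGF-beta description, 1 was higher of 15 tested in 2024 (median -0.19) and 3 were higher of 12 tested in 2023 (median 0.44). The nitrogen use gene OsPTR9 (Os06g0706400) did not pass, with log2 fold changes of 0.13 ± 0.21 in 2024 and -0.10 ± 0.14 in 2023, and neither did NPF7.7, with -0.22 ± 0.12 and 0.14 ± 0.09.

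Of the 9 OPT genes tested, 0 passed edgeR's test in either year, and 2 in 2024 and 3 in 2023 had an unadjusted p under 0.05, as did 3292 of all 19261 genes in 2024 and 2874 of all 18577 in 2023. DESeq2 also gave 0 in each year, and plain library totals gave 2 lower in 2024. Of the 9, 8 had a negative log2 fold change in 2024 and 5 in 2023, as did 9801 of all 19261 and 9328 of all 18577 genes tested. OsGT1, the glutathione transporter gene, had 142, 133 and 151 CPM in GM leaves of 2024, against 154, 165 and 157 CPM in CF leaves (Os06g0125500, log2 fold change -0.17 ± 0.09). These leaves were apart, but the difference did not pass (edgeR adjusted p = 0.347, and 0.049 with plain totals). YSL13 (Os04g0524500) had 5.51, 3.71 and 3.23 CPM in GM leaves of 2024, against 7.43, 5.67 and 7.87 CPM in CF leaves, apart but not past the threshold (log2 fold change -0.75 ± 0.22; edgeR adjusted p = 0.0968). It passed without the low-count filter (edgeR adjusted p = 0.0351) and with plain totals (0.0466). YSL12 (Os04g0524600), its neighbour on chromosome 4, had -0.52 ± 0.34 in 2024 and -0.52 ± 0.19 in 2023. The iron deficiency gene OPT7 (Os03g0751100) had -0.02 ± 0.10 and 0.27 ± 0.10.

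The direction of the treatment effect was set side by side for the 75 genes tested in both years. Of these, 26 had a positive and 23 a negative log2 fold change in both years, so 65.3% kept their sign, against 61.9% of the 18227 genes of the tables tested in both years. The remainder were uneven: 20 were negative in 2024 and positive in 2023, and 6 the reverse. Libraries of GM and CF leaves did not overlap for 9 higher and 17 lower genes of 86 in 2024, where 11.8% and 10.9% of all genes did so, and for 12 higher and 4 lower genes of 75 in 2023, where 5.35% and 4.61% did.

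**Figure D2:**
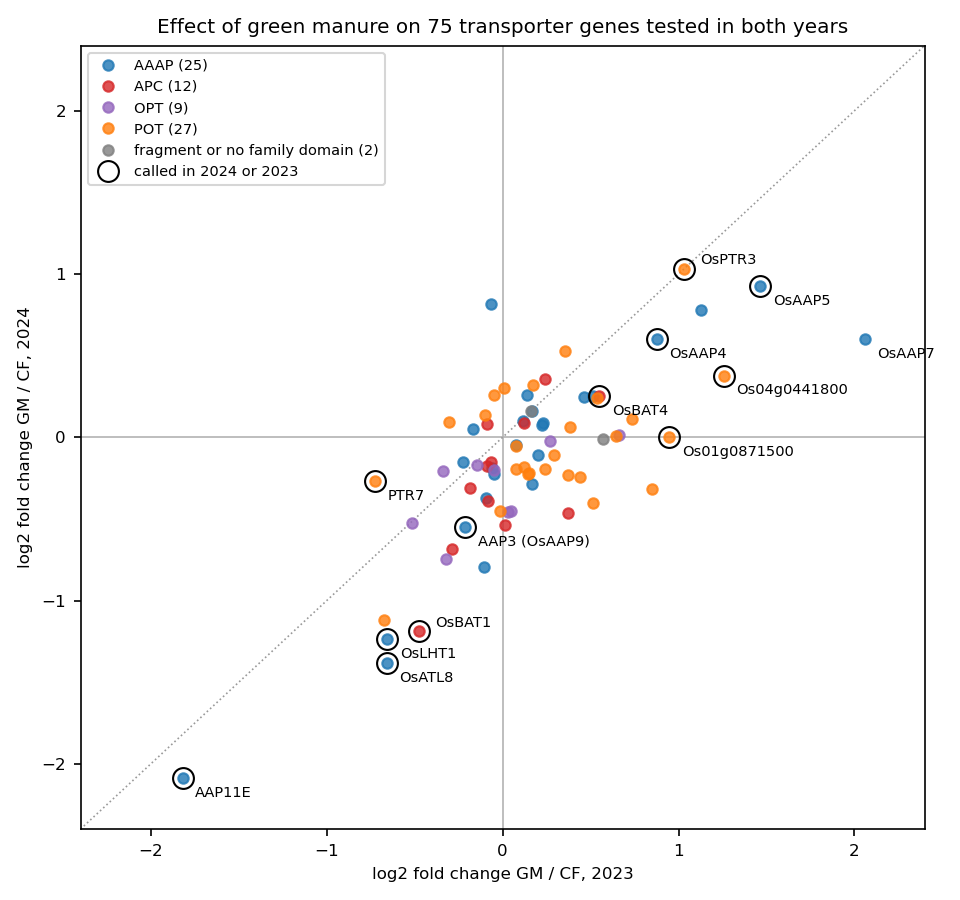
Log2 fold change of GM over CF leaves in 2024 (vertical) against 2023 (horizontal) for the 75 transporter genes tested in both years, coloured by family. Rings mark the genes that passed in at least 1 year and the dotted line is equality; OsPTR3 lies on the line at 1.03, AAP11E is the lowest point in both years, and 20 genes lie at the lower right, positive in 2023 and negative in 2024.

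The difference of the treatment effect between the years was tested directly, in 1 fit of all 14 libraries. None of 88 transporter genes passed with edgeR or with DESeq2, and 13 had an unadjusted p under 0.05 with edgeR, as did 1252 of all 19805 genes tested. Of all genes tested, 0.0101% passed, with 0.00505% higher and 0.00505% lower. The difference (GM effect of 2024 minus that of 2023) was negative for 66 of the 88, or 75%, against 50.5% of all genes, with a median of -0.29 on the log2 scale. For OsLHT1 it was -0.58 ± 0.28, for OsATL8 -0.72 ± 0.28, for OsBAT1 -0.70 ± 0.28 and for Os01g0871500 -0.94 ± 0.27. Without GM replicate 1 of 2024, Os10g0469900 passed, with a difference of -0.87 ± 0.16 (edgeR adjusted p = 0.0431).

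Levels also differed between the leaves of 2024 and of 2023, which were sampled at different ages and in different years, and these cannot be told apart. In GM leaves the amount of vetch sown also differed between the years, while CF leaves had no vetch and the same fertilizer in both. In GM leaves 16 transporter genes were higher and 24 lower in 2024 than in 2023, of 88 tested (45.5%, against 37.8% of all genes: 18.6% higher and 19.1% lower). In CF leaves 21 were higher and 12 lower (37.5%, against 39.9% of all genes: 19.5% higher and 20.4% lower). Higher in 2024 in both treatments were 12 genes, and lower in both were 11. The share of all genes called the same way in both treatments was not counted, so neither number has a background. Plain library totals, under which the median of all genes was -0.52 in GM and -0.49 in CF leaves, gave 5 higher and 40 lower in GM leaves and 8 higher and 28 lower in CF leaves, so the balance of directions depends on the scaling.

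**Figure D3:**
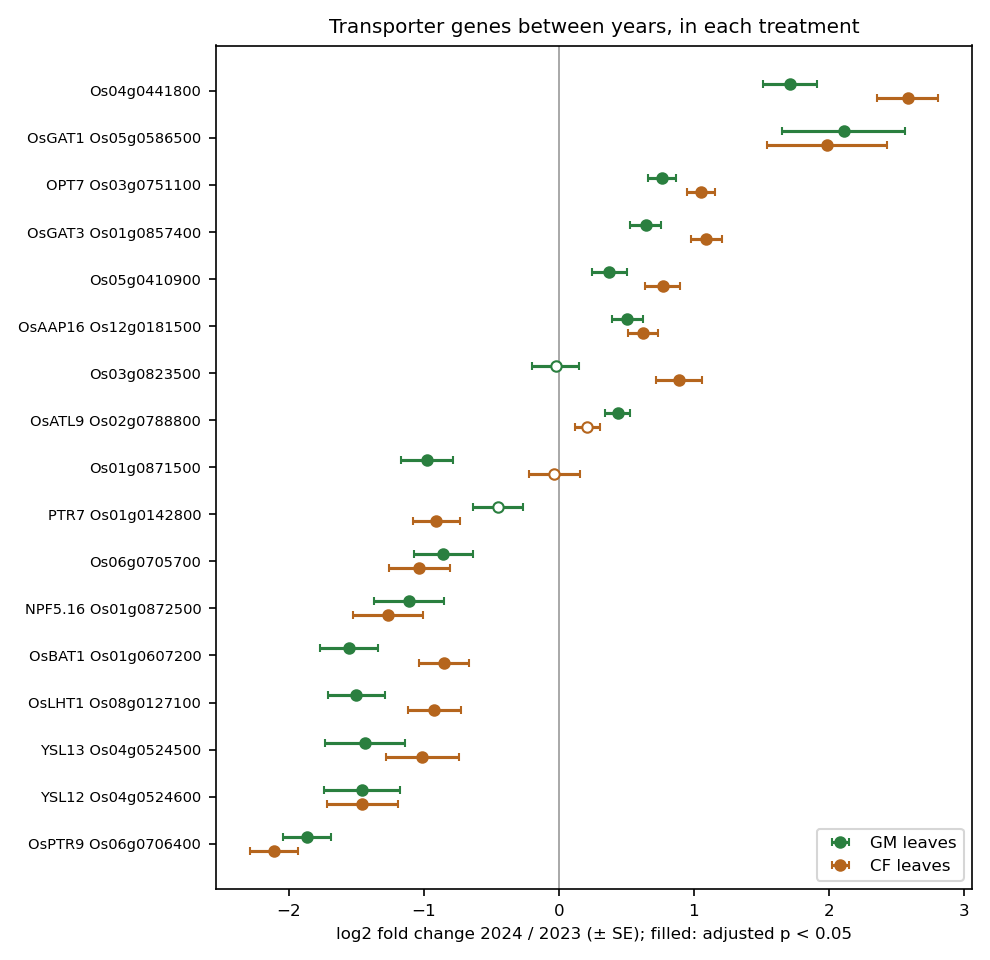
Log2 fold change of 2024 over 2023 (± SE) for 17 transporter genes, those with the smallest p in each direction and treatment, in GM leaves (green, upper point of each pair) and CF leaves (brown, lower point). Filled points have an adjusted p under 0.05; OsPTR9, YSL12 and YSL13 lie below 0 and Os04g0441800, OsGAT1 and OPT7 above it in both treatments.

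OsPTR9, a POT gene linked in rice to nitrogen utilization and growth, had the lowest log2 fold change of the transporter genes tested between years, in both treatments. It had 4.67, 4.03 and 4.43 CPM in GM leaves of 2024, against 18.9, 15.8, 12.2 and 17.4 CPM in GM leaves of 2023 (log2 fold change -1.87 ± 0.18; edgeR adjusted p = 1.57e-07). In CF leaves it had 3.97, 4.80 and 3.24 CPM in 2024, against 16.3, 20.1, 16.3 and 16.1 CPM in 2023 (Os06g0706400, -2.11 ± 0.18; edgeR adjusted p = 2.38e-08). The years did not overlap in either treatment.

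OsLHT1 and OsBAT1, lower in GM than in CF leaves of 2024, were lower in 2024 than in 2023 in both treatments. The log2 fold change of OsLHT1 between years was -1.50 ± 0.21 in GM (edgeR adjusted p = 5.48e-05) and -0.92 ± 0.20 in CF leaves (edgeR adjusted p = 0.00156). That of OsBAT1 was -1.55 ± 0.21 in GM and -0.85 ± 0.18 in CF leaves (edgeR adjusted p = 1.02e-05 and 0.00112). The lowest group of both genes was therefore GM leaves of 2024, at 11.8 ± 3.54 CPM for OsLHT1 (Os08g0127100) and 2.22 ± 0.226 CPM for OsBAT1 (Os01g0607200; SD, n = 3). The highest was CF leaves of 2023, at 53.5 ± 12.6 CPM and 9.15 ± 0.322 CPM (SD, n = 4).

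In the OPT family YSL12 and YSL13 were lower and OPT7 was higher in 2024 in both treatments. Of the other 4 YSL genes, YSL8 (Os02g0116400) and YSL5 (Os04g0390600) were lower in GM leaves, with -0.73 ± 0.21 and -0.64 ± 0.20, did not pass in CF leaves, with -0.24 ± 0.20 and -0.49 ± 0.19, and YSL1 and YSL4 were not tested. YSL12 (Os04g0524600) had 3.76, 1.49 and 1.88 CPM in GM leaves of 2024, against 8.78, 4.84, 6.91 and 6.42 CPM in 2023, and 2.72, 4.74 and 3.10 CPM in CF leaves of 2024, against 9.95, 10.8, 10.1 and 7.79 CPM in 2023. Its log2 fold change was -1.46 in both treatments (SE 0.28 in GM and 0.26 in CF leaves), and YSL13 had -1.43 ± 0.30 and -1.01 ± 0.27. OPT7 (Os03g0751100), described as regulated by iron deficiency, had 61.1, 55.7 and 56.0 CPM in GM leaves of 2024, against 31.0, 37.4, 36.8 and 30.7 CPM in 2023. In CF leaves it had 56.7, 65.3 and 52.7 CPM in 2024, against 28.9, 27.3, 28.0 and 27.9 CPM in 2023. The years did not overlap, and its log2 fold change was 0.76 ± 0.10 in GM (edgeR adjusted p = 6.64e-06) and 1.05 ± 0.10 in CF leaves (edgeR adjusted p = 1.36e-07). Over the 9 OPT genes tested, 1 was higher and 6 lower in GM leaves, and 1 higher and 2 lower in CF leaves. Of all genes, 18.6% were higher and 19.1% lower in GM leaves, and 19.5% and 20.4% in CF leaves. Plain library totals gave 1 higher and 7 lower OPT genes in GM leaves, and 1 higher and 5 lower in CF leaves.

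In the AAAP family, with TMM scaling, more genes were higher than lower in 2024 in both treatments: 9 against 5 in GM leaves and 10 against 3 in CF leaves, of 28 tested. Plain library totals turned this balance, to 2 against 8 in GM leaves and 3 against 6 in CF leaves. The shares of all genes were 18.6% higher and 19.1% lower in GM leaves and 19.5% and 20.4% in CF leaves. OsGAT3 (Os01g0857400) had 46.7, 37.6 and 44.6 CPM in GM leaves of 2024, against 24.7, 31.9, 28.9 and 24.9 CPM in 2023 (log2 fold change 0.64 ± 0.12; edgeR adjusted p = 0.000189). In CF leaves it had 54.8, 50.2 and 51.4 CPM in 2024, against 25.2, 24.9, 27.1 and 20.6 CPM in 2023 (1.09 ± 0.11; edgeR adjusted p = 3.96e-07). The low-count gene OsGAT1 (Os05g0586500) had log2 fold changes of 2.11 ± 0.45 and 1.99 ± 0.44, from 82 GM and 102 CF reads in 2024 and 21 GM and 22 CF reads in 2023. OsAAP16 (Os12g0181500), OsAAP3 (Os06g0556000, not the AAP3 gene Os02g0102200) and OsAAP7 were also higher in both treatments, by 0.51 ± 0.11 and 0.62 ± 0.11, 0.52 ± 0.14 and 0.53 ± 0.14, and 1.21 ± 0.37 and 2.66 ± 0.42 on the log2 scale in GM and CF leaves. OsATL5 was higher by 0.33 ± 0.11 in both treatments with TMM scaling, and turned to -0.16 in GM and -0.11 in CF leaves with plain totals. OsATL9 was higher in GM leaves by 0.44 ± 0.09, which also turned, to -0.04, with plain totals.

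Among POT genes, Os04g0441800 was higher in 2024 by 1.71 ± 0.20 in GM leaves (edgeR adjusted p = 1.68e-06) and by 2.58 ± 0.22 in CF leaves (edgeR adjusted p = 3.74e-08), on the log2 scale. OsPTR3 was higher in 2024 in GM leaves (0.89 ± 0.19) and in CF leaves (0.88 ± 0.19), so that the group with its highest level was GM leaves of 2024, at 152 ± 16.6 CPM (Os12g0231000; SD, n = 3). Os01g0871500 fell in GM leaves (-0.98 ± 0.19; edgeR adjusted p = 0.000863) and had -0.03 ± 0.19 in CF leaves, its level of 54.4 ± 16.7 CPM in GM leaves of 2023 (SD, n = 4) standing above the other 3 groups, which averaged 27.5 to 28.1 CPM. PTR7 had -0.45 ± 0.18 in GM and -0.91 ± 0.18 in CF leaves, where alone it passed (edgeR adjusted p = 0.000381). Os05g0410900 was higher by 0.77 ± 0.13 in CF leaves and by 0.37 ± 0.13 in GM leaves, the value of GM leaves turning to -0.10 with plain totals. Os03g0823500 was higher in CF leaves (0.89 ± 0.17; edgeR adjusted p = 0.000397) and had -0.02 ± 0.17 in GM leaves. NPF5.16 and Os06g0705700 were lower in both, with -1.11 ± 0.26 and -0.86 ± 0.22 in GM leaves and -1.27 ± 0.26 and -1.03 ± 0.23 in CF leaves. Of 34 POT genes tested, 6 were higher and 8 lower in GM leaves, and 10 higher and 4 lower in CF leaves. That is 41.2% in each treatment, against 37.8% of all genes in GM and 39.9% in CF leaves. Plain library totals gave 2 higher and 14 lower POT genes in GM leaves, and 4 higher and 9 lower in CF leaves.

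The enzymes that make and use the carried amino acids were read beside the transporters. Of 13 nitrogen assimilation, asparagine and proline enzyme genes, 11 were tested, and 3 were higher and 4 lower in GM leaves in 2024, and 2 higher and 2 lower in 2023. Of all genes tested, 1.89% were higher and 1.36% lower in 2024, and 1.63% and 0.851% in 2023. The list was chosen with earlier results of these data known, so its counts are not a fair sample. The cytosolic glutamine synthetase gene GS1;2 (Os03g0223400) was higher in both years, by 0.67 ± 0.12 in 2024 and 1.17 ± 0.17 in 2023 on the log2 scale. GS1;1 (Os02g0735200), the other cytosolic gene listed, went the other way in 2024, with 499.9 to 586.8 CPM in GM and 688.1 to 729.5 CPM in CF leaves. In 2023 GS1;1 had 537.3 to 602.4 CPM in GM and 560.5 to 670.9 CPM in CF leaves, which overlapped. ASNASE2 (Os04g0650700), an asparaginase by its name, fell in both years, with log2 fold changes of -2.07 ± 0.22 and -1.07 ± 0.15. Its level was 103, 81.3 and 113 CPM in GM leaves of 2024, against 433, 519 and 289 CPM in CF leaves. PRODH (Os10g0550900), which breaks down proline, fell as well, with -1.98 ± 0.24 in 2024 and -0.85 ± 0.12 in 2023. The proline synthesis gene P5CS1 (Os05g0455500) had 0.93 ± 0.15 in 2024, which passed, and 0.32 ± 0.12 in 2023, which did not. P5CS2 (Os01g0848200), also of proline synthesis, had 12.46 to 18.47 CPM in GM and 10.01 to 11.06 CPM in CF leaves of 2024. In 2023 the P5CS2 mean was lower in GM than in CF leaves, 10.08 against 13.81 CPM, and the ranges overlapped slightly. NADH-GOGAT2 (Os05g0555600), a glutamate synthase gene, had 1.126 to 2.463 CPM in GM and 0.2861 to 0.7358 CPM in CF leaves of 2024. In 2023 it had 1.363 to 4.042 and 0.1004 to 1.021 CPM. ASNASE1 (Os03g0597600), an asparaginase gene, was lower in GM leaves without overlap in both years. AS2 (Os06g0265000), an asparagine synthetase gene, was so in 2024 only. The ranges of GS2 (Os04g0659100) and Fd-GOGAT (Os07g0658400) overlapped in both years.

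Of 9 ammonium transporter genes 5 were tested, with 0 higher and 1 lower in each year: AMT1;1 (Os04g0509600) in 2024, with a log2 fold change of -0.54 ± 0.09, and AMT3;2 (Os03g0838400) in 2023, with -1.08 ± 0.25. Of 18 further nitrate transporter genes, 0 were higher and 2 lower of 12 tested in 2024, and 1 was higher and 2 lower of 11 tested in 2023. The shares of all genes that passed were 3.25% in 2024 and 2.48% in 2023. NRT2.4 (Os01g0547600) fell in both years, with -1.60 ± 0.16 and -0.45 ± 0.11. NRT1.5A (Os02g0689900) fell in 2024 with -0.79 ± 0.16, HTNE (Os01g0704100) fell in 2023 with -1.18 ± 0.29, and PTR4 (Os07g0603800) was higher in 2023 with 0.72 ± 0.17.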

How the data were processed

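Leaf RNA was sequenced from directional poly(A) libraries, per the labels' protocols. The authors deposited raw counts of uniquely assigned exon reads per rice locus, in 1 table for each year. The genome build was IRGSP 1.0, per the submitters' processing notes; no aligner or counter is named there. The 2024 table also holds 2 per-sample columns that the labels do not describe, 1 headed GM and 1 headed CF, which were not used. Genes were kept by edgeR's filterByExpr (minimum count 10, minimum total 15), scaled by TMM and tested with edgeR 4.0.16 (R 4.3.3, limma 3.58.1) by the robust quasi-likelihood test, with Benjamini-Hochberg adjustment over all genes. Each year was fitted alone for treatment, and all 14 libraries together for the difference between years and for 2024 against 2023. DESeq2 1.42.0, other scalings, no filter, a replicate block and left-out libraries were alternatives. The scripts were tested on simulated data. The members and lists were chosen with earlier results of these data known. Named were all genes that passed for treatment, the 6 with the smallest p in each direction of each year contrast, the 3 nearest misses of each year, the 8 with the highest mean CPM and a list of known symbols. Families follow InterPro domains, in place of a planned grouping by description words.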

Additional observations from a re-analysis of the deposited data

Results flagged for a closer look

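In 72 groups of 4 leaves examined for the named genes, 5 held a leaf far from the other 3, judged by its gap to the nearest leaf over the whole range of the group; chance gives about 1 in 20 such groups. OsPTR9 (Os06g0706400) had 20.1 CPM in CF replicate 2 of 2023, against 16.1 to 16.3 CPM in the other CF leaves (gap over range 0.954). OsATL12 (Os06g0228500) had 32.6 CPM in the same leaf, against 18.9 to 20.7 CPM (0.866), and NPF7.7 (Os10g0579600) had 59.7 CPM there, against 52.1 to 53.2 CPM (0.852). Os06g0705700 had 4.09 CPM in GM replicate 3 of 2023, against 5.30 to 5.52 CPM in the other GM leaves (0.848). Os10g0469900 had 45.3 CPM in GM replicate 4 of 2023, against 52.7 to 53.8 CPM (0.87).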

How the results depend on the processing

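The number of transporter genes that passed for treatment in 2023 was 12 with DESeq2 (8 higher, 4 lower), against 7. In 2024 it was 12 without the low-count filter (3 higher, 9 lower), 13 with plain library totals and 18 with a replicate block (5 higher, 13 lower), against 7. With a replicate block it was 6 in 2023 and 0 for the difference between years, and between years it was 15 in GM leaves, against 40, and 19 in CF leaves, against 33. Same-numbered leaves had correlations of their deviations of 0.26, 0.20 and 0.00 in 2024 and of -0.12, 0.05, 0.15 and -0.09 in 2023. Differently numbered leaves had -0.28 to 0.13 in 2024 and -0.2 to 0.28 in 2023. So few values cannot decide whether the numbers pair the leaves, least of all in 2024. With that block in 2024, OsPTR3 (Os12g0231000) did not pass (adjusted p = 0.136), while OsAAP5 (Os01g0878400, 0.0116) and OsAAP7 (Os05g0424000, 0.00129) did. Leaving out 1 library gave 3 to 17 genes in 2024, 2 to 7 in 2023, 0 to 1 for the difference, 27 to 41 between years in GM leaves and 24 to 36 in CF leaves. Plain totals reversed the year contrast of OsATL9 (Os02g0788800, -0.04), Os05g0410900 (-0.10) and OsATL5 (Os06g0633800, -0.16) in GM leaves and of OsATL5 (-0.11), AAP1 (Os07g0134000, -0.29) and NPF7.7 (Os10g0579600, -0.11) in CF leaves. For the named genes, DESeq2 kept 171 of 180 results and plain totals 144 of 180. The cause of these shifts was not tested. Low counts limit AAP11E, OsANT2 and OsGAT1.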
